A study of Mus musculus with 12 samples.

Results

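The 10 genes described here encode the ligands of the transforming growth factor-β (TGF-β) pathway (Tgfb1, Tgfb2 and Tgfb3), their receptors (Tgfbr1, Tgfbr2 and Tgfbr3), 3 latent TGF-β binding proteins (Ltbp1, Ltbp2 and Ltbp4) and the TGF-β induced matrix protein Tgfbi. They were chosen by name as parts of this pathway, with earlier results of these data known. All 10 were found among the 55536 genes of both deposited tables, and all 10 passed the filter on low values. TGF-β ligands are made as precursors that a furin-type protease cuts, and the cut propeptide stays wrapped around the ligand and holds it latent. Latent binding proteins anchor this complex in the matrix, and integrins that grip an RGD (arginine-glycine-aspartate) motif of the propeptide can set the ligand free. The free ligand binds the kinase receptor encoded by Tgfbr2, which recruits and activates the one encoded by Tgfbr1, and Smad proteins then carry the signal to the nucleus. In adipose tissue the pathway is known for restraining the differentiation of adipocytes and for inducing matrix genes.

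RNA was sequenced from the stromal vascular fraction (SVF), the cells left when adipocytes are removed from a fat depot, of inguinal white adipose tissue (iWAT) from male mice of mixed C57BL6/J-129SV background kept at room temperature. The results of the study name the SVF as the source of the RNA and its methods name the inguinal fat depot, and the labels say primary cells. The libraries are called SVF here on that basis, with the markers of mature adipocytes given as a check. There were 4 control mice of 2 months, 4 control mice of 12 months and 4 mice of 12 months lacking Pdgfrβ (Pdgfrβ-KO), with 1 library per mouse. In the Pdgfrβ-KO mice, tamoxifen-induced Sma-CreERT2 deletes the floxed alleles of Pdgfrβ, so deletion is limited to cells that express smooth muscle actin, including vascular smooth muscle, and other Pdgfrβ-expressing cells keep the gene. The labels call the controls of both ages wild type, while the text of the study uses the name Sma-Control for mice with Sma-CreERT2 and a reporter, and whether these control libraries came from mice with the Cre or with tamoxifen is not given in the sources used here. Whether the Pdgfrβ-KO libraries were prepared together with the controls is not given either, so preparation and genotype cannot be told apart.

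Values are normalised read counts, which the authors rounded to whole numbers after dividing each count by the size factor of its library. They summed to 19.6 to 21.9 M per library, and because of the division these totals do not give the sequencing depth. The targeted gene served as a check of the labels. Pdgfrb had 3000, 4380, 3258 and 2399 normalised read counts in the 12-month controls and 1882, 2145, 1707 and 1749 in Pdgfrβ-KO, with no overlap and a log2 fold change of -0.77 (SE 0.166, adjusted p = 0.0160 from limma). Mature adipocyte markers were low, summing to 736 to 2200 over 5 genes in the 12 libraries, while 10 markers of fibroblastic progenitors summed to at least 61835 and 10 of mural cells to at least 24231. In each comparison an adjusted p under 0.05 from limma, corrected over all genes tested, counts as passing. Between the ages 22.7% of 16399 genes passed, 11.3% higher and 11.4% lower at 12 months. Between Pdgfrβ-KO and 12-month controls 9.42% of 16344 genes passed, 4.96% higher and 4.46% lower. These backgrounds changed with the libraries in the fit, and a fit with fewer libraries can also detect less. With 1 library left out, the 3727 calls between the ages were 2356 to 3961, the lowest without 2-month replicate 4 (2356) or 3 (2454). The 1539 calls for Pdgfrβ-KO were between 859 and 1878 with 1 library left out. The lowest came without 12-month control replicate 1 (895), 2 (885) or 3 (859) and without Pdgfrβ-KO replicate 1 (889).

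Of the 10 genes, Tgfb3 fell with age and was lower again in Pdgfrβ-KO, while Tgfbi and Ltbp1 rose with age and did not pass in Pdgfrβ-KO. With age 2 of 10 passed as higher and 1 as lower, and 7 did not pass, and in Pdgfrβ-KO 0 passed as higher and 1 as lower, and 9 did not pass. Between the ages this is 3 of 10 beside the background of 22.7%, and for Pdgfrβ-KO it is 1 of 10 beside 9.42%, so the genes together did not stand apart from the background. Their median log2 fold change was 0.11 with age and -0.05 in Pdgfrβ-KO, where the medians of all genes tested were -0.01 and -0.01. The 12-month controls enter both comparisons, so the values of a gene in one are not independent of its values in the other. A lower value in bulk SVF can come from fewer cells that express the gene or from less RNA per cell, and these cannot be told apart here.

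**Figure D1:**
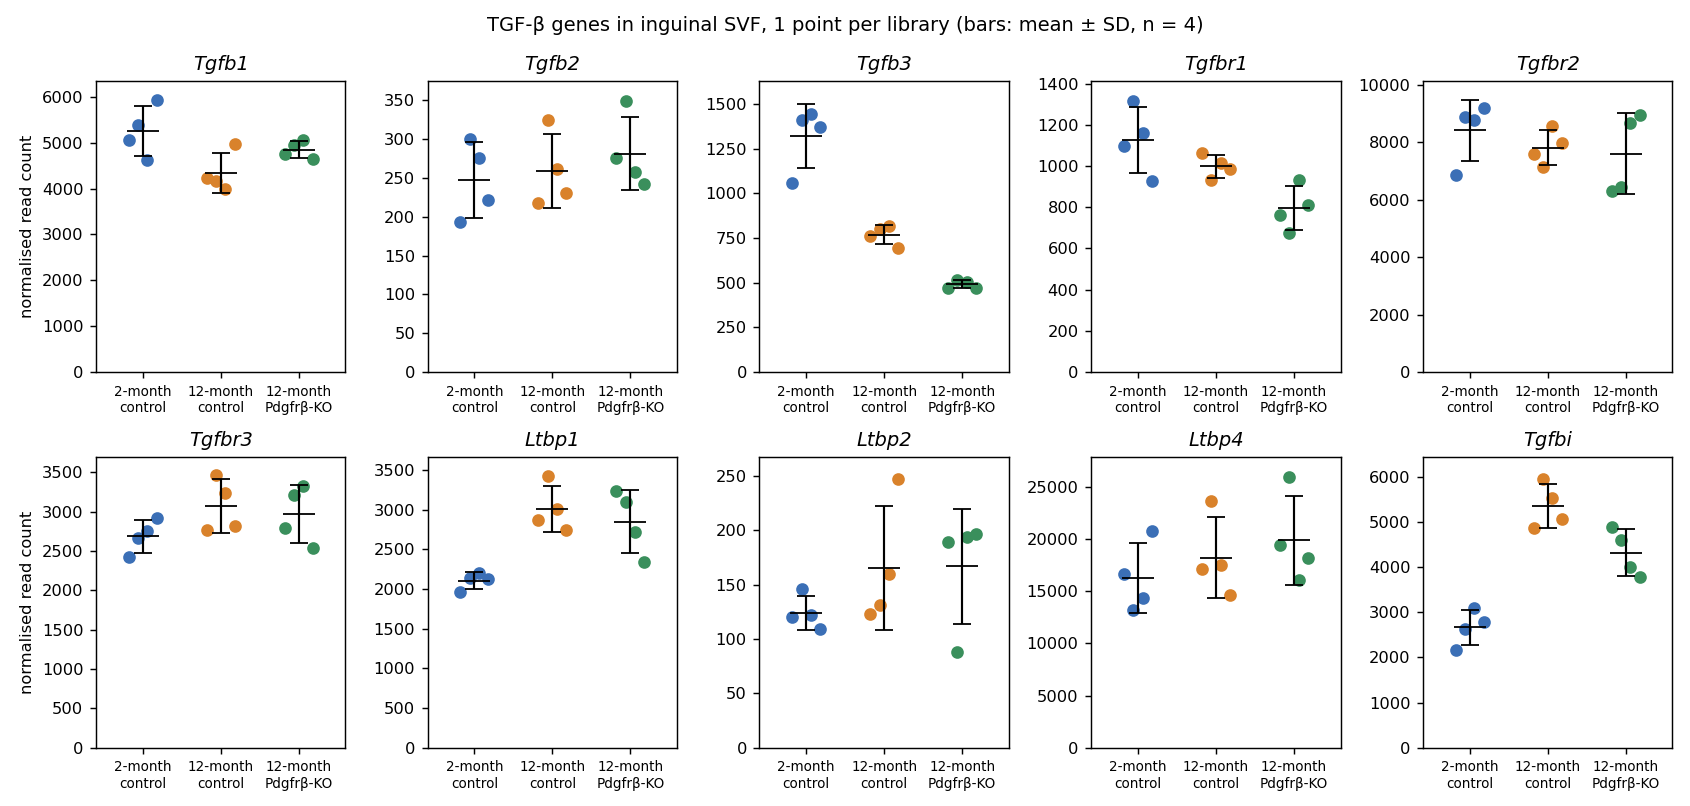
Normalised read counts (vertical axes, starting at 0) of the 10 genes in each library of the 2-month controls, 12-month controls and 12-month Pdgfrβ-KO, with the mean and SD of 4 libraries per group as bars. Tgfb3 separates all 3 groups, from 1059 to 1447 down to 694 to 818 and 472 to 515, and Tgfbi and Ltbp1 separate the 2-month controls from both 12-month groups.

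The coding sequences of the ligands are shown around the site where the propeptide is cut, because the part after the site is the ligand itself and its RNA cannot be measured apart from that of the propeptide. The site was placed by the known length of the ligand at the end of the precursor. The stretches are 72 bases of coding RNA written as DNA, 5′ to 3′, with the codons of the cleavage site in capitals, and were read from the GENCODE vM21 transcripts of GRCm38. Each runs across an exon junction, on chr7:25697205-25704128 (plus strand) for Tgfb1, chr1:186629033-186630677 (minus strand) for Tgfb2 and chr12:86059050-86062095 (minus strand) for Tgfb3.
Tgfb1: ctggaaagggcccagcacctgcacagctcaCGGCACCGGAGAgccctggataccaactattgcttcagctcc
Tgfb2: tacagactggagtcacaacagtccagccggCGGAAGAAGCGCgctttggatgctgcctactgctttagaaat
Tgfb3: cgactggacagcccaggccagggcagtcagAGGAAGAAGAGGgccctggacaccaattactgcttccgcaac

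The propeptides differ in the motif through which integrins act on them. Tgfb1 and Tgfb3 each hold 1 RGD codon triplet in the coding sequence, at codons 244 to 246 and 261 to 263, and Tgfb2 holds 0. The triplets are in capitals in the 69 bases shown, which come from chr7:25696983-25697180 (plus strand) and chr12:86062135-86063824 (minus strand) of GRCm38 and also cross an exon junction.
Tgfb1: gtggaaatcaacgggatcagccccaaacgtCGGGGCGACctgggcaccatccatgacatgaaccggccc
Tgfb3: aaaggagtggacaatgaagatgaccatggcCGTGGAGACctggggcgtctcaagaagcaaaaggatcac

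Tgfb3 (ENSMUSG00000021253; GRCm38 chr12:86056745-86079041, minus strand), the ligand gene known for its part in palate fusion, was the only one of the 10 to pass in both comparisons. Its normalised read counts were 1059, 1413, 1447 and 1370 in 2-month controls, 764, 803, 818 and 694 in 12-month controls and 473, 515, 504 and 472 in Pdgfrβ-KO. No library of any group reached into the range of another group, which for Pdgfrβ-KO against 2-month controls was so in 39.8% of all genes tested. The means were 1322 ± 178, 769.8 ± 55.4 and 491 ± 21.8 (SD, n = 4), with a spread within Pdgfrβ-KO of 4.45% of the mean. With age Tgfb3 fell by 0.77 on the log2 scale (SE 0.109, 95% confidence interval -1.01 to -0.54, adjusted p = 0.000556 from limma), and in Pdgfrβ-KO it fell by a further 0.65 (SE 0.100, 95% confidence interval -0.87 to -0.43, adjusted p = 0.00307). The groups did not overlap in 24.8% of all genes tested between the ages and in 17.1% for Pdgfrβ-KO. The share of all genes that passed in both comparisons, or that separated all 3 groups, was not computed. How common the pattern of Tgfb3 is among all genes is therefore not known here. Tgfb3 overlaps 3 genes on the opposite strand, Ttll5 among them, and none of these was above 304 normalised read counts in any library. Whether reads were counted by strand is not given in the sources used here, so reads in the overlap cannot be told apart.

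Tgfb1 (ENSMUSG00000002603; chr7:25687002-25705077, plus strand), the ligand made by many immune cells and platelets, did not pass in any comparison. It had 5061, 5396, 4628 and 5940 normalised read counts in 2-month controls, 4220, 4160, 3983 and 4970 in 12-month controls and 4753, 4945, 5055 and 4643 in Pdgfrβ-KO. The 12-month control range overlapped the 2-month range through replicate 4, and Pdgfrβ-KO lay between the means of the control groups. The log2 fold change with age was -0.28 (SE 0.103, 95% confidence interval -0.50 to -0.05, adjusted p = 0.0723 from limma). It passed at an adjusted p of 0.0409 without 12-month control replicate 4 and of 0.0435 after upper quartile scaling. In Pdgfrβ-KO the difference was 0.17 (SE 0.105, 95% confidence interval -0.06 to 0.40, adjusted p = 0.337).

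Tgfb2 (ENSMUSG00000039239; chr1:186622792-186705989, minus strand), which relies on the coreceptor of Tgfbr3 to bind well, was the lowest ligand, also per length. Its normalised read counts ranged from 193 to 300 in 2-month controls (median 249), from 217 to 324 in 12-month controls (median 246.5) and from 242 to 349 in Pdgfrβ-KO (median 267). The 3 ranges overlapped, and the log2 differences were 0.07 with age (95% confidence interval -0.30 to 0.43, adjusted p = 0.803 from limma) and 0.12 in Pdgfrβ-KO (95% confidence interval -0.24 to 0.49, adjusted p = 0.668).

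Levels of different genes were set side by side as normalised read counts per kb of merged exons. Tgfb1 was the highest ligand in every library, with group means of 1042 ± 110, 859 ± 86.5 and 962 ± 36.8 per kb in 2-month controls, 12-month controls and Pdgfrβ-KO (SD, n = 4). Tgfb3 followed with 391 ± 52.7, 228 ± 16.4 and 145 ± 6.45 per kb, and Tgfb2 with 42.8 ± 8.45, 44.6 ± 8.21 and 48.6 ± 8.16 per kb. The ranges of the 3 ligands did not overlap in any group. As a share of the ligand RNA per kb, Tgfb3 made up 26.5% ± 3.23, 20.2% ± 2.5 and 12.6% ± 0.178 in the 3 groups, and Tgfb1 made up 70.6% ± 3.73, 75.8% ± 3.09 and 83.2% ± 0.721 (SD, n = 4). These shares depend on the length used, and with the longest transcript of each gene that of Tgfb1 was 82.2%, 85.7% and 90.4%.

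**Figure D2:**
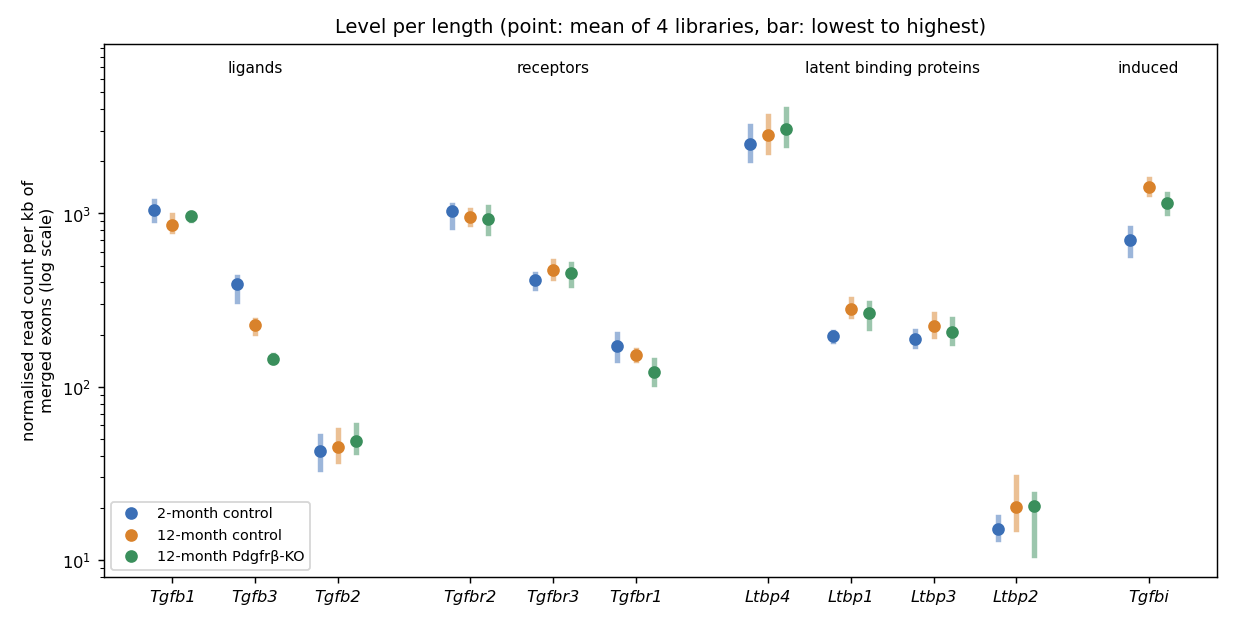
Normalised read count per kb of merged exons (log axis) for each ligand, receptor and latent binding protein and for Tgfbi, with points for the mean of 4 libraries and bars from the lowest to the highest library of each group. Ltbp4, Tgfb1 and Tgfbr2 led their families in all 3 groups, and Tgfb3 dropped from 391 to 228 and 145 per kb while Tgfb1 and Tgfb2 stayed within overlapping ranges.

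None of the 3 receptor genes passed with age or in Pdgfrβ-KO, and Tgfbr1 came closest. Tgfbr1 (ENSMUSG00000007613; chr4:47353222-47414931, plus strand) encodes the receptor kinase that phosphorylates the Smads. Its normalised read counts were 1097, 1314, 1163 and 930 in 2-month controls, 1062, 932, 1015 and 986 in 12-month controls and 762, 676, 931 and 811 in Pdgfrβ-KO. Every Pdgfrβ-KO library lay below every 12-month control library, by only 1 count at the closest (931 and 932), and the log2 difference was -0.34 (SE 0.115, 95% confidence interval -0.59 to -0.09, adjusted p = 0.0890 from limma). Without Pdgfrβ-KO replicate 3, the library at 931, the adjusted p was 0.0489. With age the difference was -0.16 (SE 0.105, 95% confidence interval -0.39 to 0.07, adjusted p = 0.278) and the groups overlapped.

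Tgfbr2 (ENSMUSG00000032440; chr9:116084293-116175360, minus strand), the kinase that binds the ligand, had 6855, 8879, 8755 and 9191 normalised read counts in 2-month controls, 7598, 7119, 8577 and 7958 in 12-month controls and 6306, 6447, 8651 and 8958 in Pdgfrβ-KO. The Pdgfrβ-KO libraries fell into a lower pair and a higher pair that together spanned the whole range of the 12-month controls. The log2 differences were -0.10 with age (95% confidence interval -0.34 to 0.14, adjusted p = 0.530 from limma) and -0.06 in Pdgfrβ-KO (95% confidence interval -0.37 to 0.25, adjusted p = 0.830).

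Tgfbr3 (ENSMUSG00000029287; chr5:107106570-107289629, minus strand) encodes betaglycan, a coreceptor without a kinase. Its normalised read counts ranged from 2421 to 2922 in 2-month controls (median 2704.5), from 2764 to 3468 in 12-month controls (median 3024) and from 2538 to 3328 in Pdgfrβ-KO (median 3001). The log2 differences were 0.19 with age (95% confidence interval -0.03 to 0.40, adjusted p = 0.185 from limma) and -0.05 in Pdgfrβ-KO (95% confidence interval -0.32 to 0.22, adjusted p = 0.825). Per kb the receptors kept the order Tgfbr2, Tgfbr3, Tgfbr1 in every group without overlap, at 954 ± 75.0, 469 ± 51.6 and 153 ± 8.33 per kb in the 12-month controls (SD, n = 4). Tgfbr2 made up 63.7% ± 1.99 of the receptor RNA per kb in 2-month controls, 60.5% ± 2.80 in 12-month controls and 61.4% ± 4.91 in Pdgfrβ-KO.

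Ltbp1 (ENSMUSG00000001870; chr17:75005568-75392512, plus strand), which encodes a protein that binds the latent complexes and ties them to fibrillin and fibronectin, was higher at 12 months than at 2 months in every library. It had 1960, 2140, 2206 and 2121 normalised read counts in 2-month controls, 2867, 3420, 3005 and 2744 in 12-month controls and 3237, 3096, 2717 and 2347 in Pdgfrβ-KO. The 2-month libraries lay below all 8 libraries of 12 months, and the latter groups overlapped over most of their range. Ltbp1 rose with age by 0.51 on the log2 scale (SE 0.0892, 95% confidence interval 0.32 to 0.70, adjusted p = 0.00208 from limma), a fold of 1.42. In Pdgfrβ-KO the difference from 12-month controls was -0.08 (SE 0.126, 95% confidence interval -0.36 to 0.19, adjusted p = 0.708).

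Ltbp1 has 2 annotated starts among the RefSeq promoters of GRCm38.p6, from which a longer and a shorter protein are known to be made, and the deposited counts add them up. The 250 bases before each start are shown on the plus strand, 5′ to 3′, beside those of Tgfbi, the other gene that rose with age. Capitals mark the short Smad-binding letters CAGAC and the GC box GGGCGG, read on both strands.
Ltbp1, the upstream start, chr17:75005279-75005528: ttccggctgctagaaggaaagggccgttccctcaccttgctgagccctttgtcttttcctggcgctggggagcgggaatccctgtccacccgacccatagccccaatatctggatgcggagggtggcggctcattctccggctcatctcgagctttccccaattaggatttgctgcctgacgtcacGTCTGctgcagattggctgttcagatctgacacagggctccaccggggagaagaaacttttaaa
Ltbp1, the downstream start, chr17:75178531-75178780: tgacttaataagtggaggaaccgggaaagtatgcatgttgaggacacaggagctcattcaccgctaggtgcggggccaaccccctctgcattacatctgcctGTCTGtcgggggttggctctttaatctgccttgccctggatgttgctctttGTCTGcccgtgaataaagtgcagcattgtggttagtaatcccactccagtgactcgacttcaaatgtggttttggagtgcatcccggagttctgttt
Tgfbi, chr13:56609336-56609585: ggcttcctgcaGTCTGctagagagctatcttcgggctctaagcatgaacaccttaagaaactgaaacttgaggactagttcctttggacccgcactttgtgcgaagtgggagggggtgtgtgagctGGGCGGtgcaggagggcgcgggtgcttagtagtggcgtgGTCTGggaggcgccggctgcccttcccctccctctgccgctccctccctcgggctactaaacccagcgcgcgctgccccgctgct

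In the 300 bases searched, which run 50 bases past each start, CAGAC was found 1 time at the upstream start of Ltbp1, 2 times at the downstream start and 2 times at Tgfbi, and GGGCGG was found 2 times at Tgfbi and 0 times at either start of Ltbp1. The AP-1 letters TGANTCA and the TATA letters TATAAA were found in none of the 3 windows. Of 32851 RefSeq promoters searched in this way, 49.6% hold CAGAC, 35.7% GGGCGG, 7.81% TGANTCA and 13.6% TATAAA, so a match to CAGAC or GGGCGG is common. RefSeq promoters were found for 8 of the 10 genes, with Tgfb3 and Tgfbr3 not among them.

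Ltbp4 (ENSMUSG00000040488; chr7:27305136-27337692, minus strand) encodes a binding protein that also helps to build elastic fibres. It had 16680, 13214, 14384 and 20770 normalised read counts in 2-month controls, 17071, 23668, 17532 and 14595 in 12-month controls and 19399, 25895, 16030 and 18173 in Pdgfrβ-KO. The libraries of each group spread by 20.5%, 21.2% and 21.4% of the mean, and the groups overlapped. The log2 differences were 0.16 with age (95% confidence interval -0.19 to 0.52, adjusted p = 0.501 from limma) and 0.13 in Pdgfrβ-KO (95% confidence interval -0.27 to 0.52, adjusted p = 0.698).

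Ltbp2 (ENSMUSG00000002020; chr12:84783212-84876532, minus strand), whose protein does not bind latent TGF-β, lies 1.18 Mb from Tgfb3 on the same chromosome. It was the lowest of the 10 genes, also per length, with 120, 146, 122 and 109 normalised read counts in 2-month controls, 123, 131, 160 and 247 in 12-month controls and 189, 88, 194 and 197 in Pdgfrβ-KO. In each 12-month group 1 library stood apart, the highest of the controls at 247 and the lowest of Pdgfrβ-KO at 88. The log2 difference with age was 0.36 (SE 0.206, 95% confidence interval -0.09 to 0.81, adjusted p = 0.224 from limma), and for Pdgfrβ-KO against 12-month controls the 95% confidence interval was -0.65 to 0.65.

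Per kb, Ltbp4 was the highest latent binding protein in every group, at 2516 ± 516, 2819 ± 597 and 3075 ± 657 in 2-month controls, 12-month controls and Pdgfrβ-KO (SD, n = 4). Ltbp1 was at 197 ± 9.76, 281 ± 27.5 and 266 ± 37.5 per kb. Ltbp3, the remaining gene of the family, was at 189 ± 16.2, 225 ± 33.8 and 208 ± 33.5 per kb, and its ranges overlapped those of Ltbp1 in each group. Ltbp2 was at 15.2 ± 1.90, 20.2 ± 6.94 and 20.4 ± 6.45 per kb. Among these 4 genes Ltbp4 made up 85.9% ± 2.72, 84.1% ± 1.54 and 85.9% ± 1.81 of the RNA per kb.

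Tgfbi (ENSMUSG00000035493; chr13:56609523-56639562, plus strand) encodes a secreted matrix protein that binds integrins and collagens, and is made by fibroblasts and macrophages among others. It had 2159, 2630, 3095 and 2780 normalised read counts in 2-month controls, 4871, 5947, 5538 and 5055 in 12-month controls and 4894, 4610, 3992 and 3784 in Pdgfrβ-KO. All 8 libraries of 12 months lay above all 2-month libraries, and 1 library of Pdgfrβ-KO, at 4894, lay within the range of the 12-month controls. Tgfbi rose with age by 1.01 on the log2 scale (SE 0.115, adjusted p = 0.000145 from limma), a fold of 2.02 and the largest difference of the 10 genes with age. In Pdgfrβ-KO the difference from 12-month controls was -0.31 (SE 0.120, 95% confidence interval -0.58 to -0.05, adjusted p = 0.125), which did not pass.

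**Figure D3:**
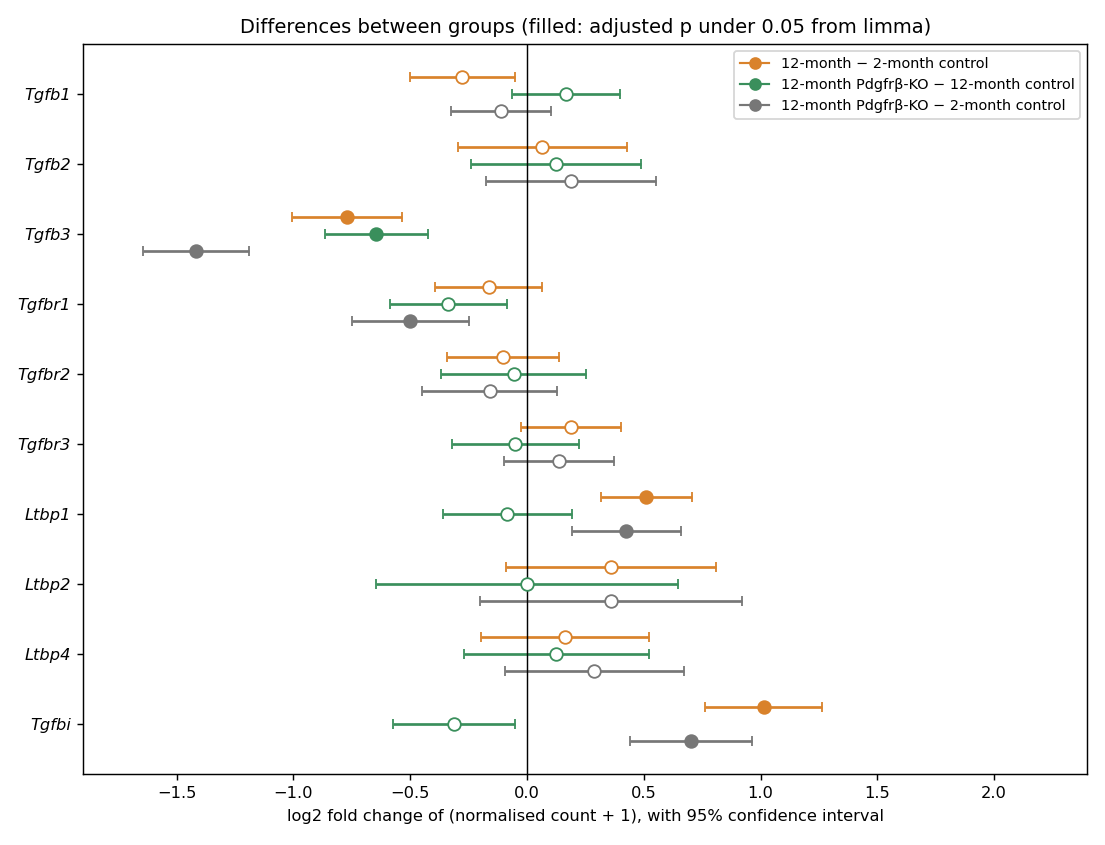
Log2 fold change of (normalised read count + 1) for the 10 genes (horizontal axis) with 95% confidence intervals, for 12-month against 2-month controls, 12-month Pdgfrβ-KO against 12-month controls and 12-month Pdgfrβ-KO against 2-month controls, with filled points for an adjusted p under 0.05 from limma. Tgfb3 lies at -0.77, -0.65 and -1.42, and Tgfbi at 1.01, -0.31 and 0.70.

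The 12-month Pdgfrβ-KO libraries were also set against the 2-month controls in a fit of all 12 libraries, in which 46.1% of 16960 genes passed, 22.8% higher and 23.3% lower. This comparison differs in both age and genotype. Of the 10 genes 2 were higher, Tgfbi and Ltbp1, 2 were lower, Tgfb3 and Tgfbr1, and 6 did not pass. Tgfb3 differed by -1.42 on the log2 scale (SE 0.106, adjusted p = 6.71e-07 from limma), a level 0.374 times that of the 2-month controls. Tgfbr1 differed by -0.50 (SE 0.118, adjusted p = 0.00348), although the lowest 2-month library, at 930, was 1 count below the highest Pdgfrβ-KO library. Tgfbi was higher by 0.70 (SE 0.122, adjusted p = 0.000473) and Ltbp1 by 0.43 (SE 0.109, adjusted p = 0.00596). Ltbp2, at 0.36 (SE 0.263, adjusted p = 0.277), passed at 0.64 with an adjusted p of 0.0258 without Pdgfrβ-KO replicate 2.

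Genes that store and release latent TGF-β moved in both directions with age. Of 19 tested, 4 passed as higher and 5 as lower, beside 11.3% and 11.4% of all genes, and 10 did not pass, with a median log2 fold change of -0.06. The matrix metalloproteinase genes Mmp14, Mmp2 and Mmp9, whose proteins can free or activate the ligand, rose by 0.71, 0.46 and 0.66 in log2 units, as did the integrin gene Itgb5, by 0.77. The integrin gene Itgb8 fell by 0.91, Lrrc32, whose protein GARP anchors latent TGF-β on cell surfaces, by 0.56, Thbs1, the activator thrombospondin 1, by 0.60, the crosslinking enzyme gene Tgm2 by 0.61 and the matrix gene Emilin1 by 0.34. The higher genes numbered 2 without 12-month control replicate 3. In Pdgfrβ-KO 1 passed as higher and 2 as lower, and 16 did not pass, with a median of -0.11. The background for this and the other pathway lists in Pdgfrβ-KO was 4.96% of all genes higher and 4.46% lower. Nrros, which anchors latent TGF-β on macrophages and microglia, rose by 0.42, and Lrrc32 and Fn1, the fibronectin gene, fell by 0.74 and 0.89. The higher genes numbered 0 without 12-month control replicate 1 or Pdgfrβ-KO replicate 1, and 2 without 12-month control replicate 4 or Pdgfrβ-KO replicate 2. Lrrc32 thus fell in both comparisons, with mean normalised read counts of 2784 in 2-month controls, 1908 in 12-month controls and 1138 in Pdgfrβ-KO.

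Among 13 accessory receptors and extracellular antagonists, 2 passed as higher with age and 0 as lower, and 11 did not pass, beside 22.7% of all genes that passed in either direction. Cd109, whose protein takes up the receptors, rose by 1.04, and Dcn, decorin, which binds the ligand, by 0.90. The lower genes numbered 1 without 12-month control replicate 1 or 2. In Pdgfrβ-KO 3 passed as lower and 0 as higher, and 10 did not pass, and the lower ones were the proteoglycan genes Aspn (-1.05) and Dcn (-0.67) and the activin antagonist gene Fst (-0.70). These lower genes numbered 2 to 5 with 1 library left out, and 5 without 12-month control replicate 4. The median log2 fold changes were 0.05 with age and -0.16 in Pdgfrβ-KO.

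Of 24 Smads and regulators of Smads, 8 passed as lower with age and 1 as higher beside 11.4% and 11.3% of all genes, and 15 did not pass, with a median log2 fold change of -0.16. Smad7, the inhibitory Smad that TGF-β itself induces, fell by 0.93 on the log2 scale, from a mean of 5137 to 2711 normalised read counts. The corepressor genes Tgif2 and Tgif1 fell by 0.61 and 0.55, the ubiquitin ligase genes Nedd4l, Smurf1 and Trim33 by 0.49, 0.38 and 0.38, Smad6 by 0.44 and Smad2, the only receptor-activated Smad among the lower genes, by 0.30. Pmepa1, a regulator gene induced by TGF-β, rose by 0.38. The 8 lower genes numbered 5 without 2-month replicate 3 or 4 or 12-month control replicate 1, and Pmepa1 did not pass without any 1 of the 8 libraries but 12-month control replicate 3. In Pdgfrβ-KO Smurf1 fell by 0.66, 0 genes were higher and 23 did not pass, with a median of -0.12. The lower genes numbered 2 without Pdgfrβ-KO replicate 4, and 1 was higher without Pdgfrβ-KO replicate 3. A fit of all 12 libraries gave 3 lower and 1 higher, and the replicate block gave 4 lower and 1 higher.

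Of 29 genes known to be induced by TGF-β, 14 passed as lower with age and 3 as higher beside 11.4% lower and 11.3% higher of all genes, and 12 did not pass, with a median log2 fold change of -0.40 beside -0.01 for all genes. The fibrillar collagen genes, the smooth muscle genes Cnn1 (-1.63), Acta2 (-0.88) and Tagln (-0.59) and the matrix genes Tnc (-1.65) and Postn (-0.90) were among the lower ones. Nox4, an oxidase gene, rose from a mean of 114 to 316 normalised read counts, and Lox, which crosslinks collagen, and Pmepa1 rose by 0.49 and 0.38 on the log2 scale. Leaving out 2-month replicate 4 left 1 of the higher genes. Cnn1, Acta2 and Tagln are also mural markers. In Pdgfrβ-KO 6 passed as lower and 4 as higher, and 19 did not pass, with a median of -0.28. Lox (-1.16), Nox4 (-0.82) and Tnc (-1.17) were lower there, as were Fn1 (-0.89), Snai1 (-0.82) and Bhlhe40 (-0.54). The collagen genes Col1a1 (1.54), Col1a2 (0.90) and Col3a1 (0.79) and the protease inhibitor gene Timp1 (0.71) were higher. The higher genes numbered 2 without 12-month control replicate 1, 3 or 4 or Pdgfrβ-KO replicate 1, 2 or 3. The 6 lower genes numbered 4 to 7 with 1 library left out.

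The list of other superfamily ligands, which is not complete, held 13 genes, of which 11 were tested. The tested genes include Bmp1, which encodes a protease and not a ligand, and which did not pass in either comparison. With age 4 passed as lower and 2 as higher beside 11.4% and 11.3% of all genes, and 5 did not pass, with a median log2 fold change of 0.08. Inhba and Inhbb, the activin subunits, fell by 0.99 and 0.71, Gdf10 and Gdf11 by 0.64 and 0.58, and Gdf6 and Bmp2 rose by 1.38 and 0.47. In Pdgfrβ-KO 4 passed as lower and 0 as higher, and 7 did not pass, with a median of -0.62. Bmp4, a signal that commits progenitors to the adipocyte lineage, fell by 1.32 on the log2 scale, from a mean of 374.5 to 148.5 normalised read counts. Bmp6 fell by 0.76, Inhbb by 0.96 and Inha by 1.61. Inha had only 16 to 28 normalised read counts in 12-month controls and 6 to 8 in Pdgfrβ-KO. It met the filter on low values only through the controls, so its call carries little weight. The lower genes numbered 2 to 5 with 1 library left out, and 2 without 12-month control replicate 1, 2 or 4.

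**Figure D4:**
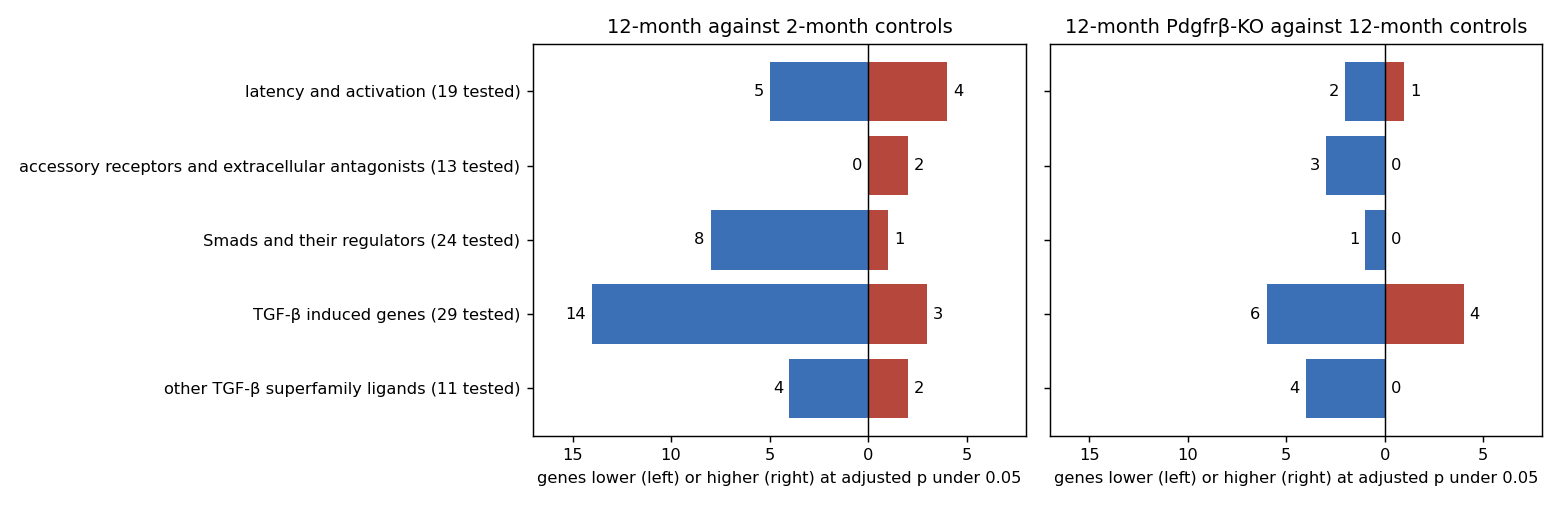
Number of genes of each pathway list that were lower (to the left) or higher (to the right) at an adjusted p under 0.05 from limma (horizontal axis), with age in the left panel and in Pdgfrβ-KO in the right panel, and the number tested in brackets. With age the TGF-β induced genes were lower in 14 and higher in 3 of 29. In Pdgfrβ-KO the list of other superfamily ligands, which includes the protease gene Bmp1, was lower in 4 and higher in 0 of 11. Inha, at 6 to 8 normalised read counts in Pdgfrβ-KO, is among the 4.

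Markers of several cell types moved with the groups, and their part in the results above was not tested. Their counts stand beside 11.3% of all genes higher and 11.4% lower with age, and 4.96% and 4.46% in Pdgfrβ-KO. Mural cell markers were lower with age in 7 of 10 and higher in 1, and summed to 47415 to 53876 in 2-month controls, 29295 to 50696 in 12-month controls and 24231 to 30013 in Pdgfrβ-KO, where 0 of 10 passed in either direction against 12-month controls. Tgfb3 and the mural sum thus both were lower in the 12-month groups. Relative to the means of the 2-month controls, the mural sum and Tgfb3 were at 0.715 and 0.578 in 12-month control replicate 1, at 0.994 and 0.607 in replicate 2, at 0.874 and 0.619 in replicate 3 and at 0.575 and 0.525 in replicate 4. Endothelial markers summed to 56507 to 78891, 39133 to 60527 and 31598 to 42629 in the 3 groups, with 3 of 8 lower with age and 2 of 8 lower in Pdgfrβ-KO. Schwann cell markers were lower with age in 5 of 5 and in Pdgfrβ-KO in 1 of 5, with sums of 9398 to 12259, 4065 to 4679 and 3164 to 4812.

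Macrophage markers were higher with age in 6 of 10 and in Pdgfrβ-KO in 7 of 10, and summed to 14956 to 21436, 28787 to 40550 and 54993 to 93542. Beside these sums, the mean normalised read counts were 2666, 5353 and 4320 for Tgfbi and 2107, 3009 and 2849 for Ltbp1 in 2-month controls, 12-month controls and Pdgfrβ-KO. Monocyte markers were higher in 2 of 5 in each comparison, with sums of 2391 to 3599, 3208 to 4360 and 4855 to 7184. Fibroblastic progenitor markers were higher with age in 7 of 10. In Pdgfrβ-KO 4 of 10 were lower and 6 did not pass. Their sums were 61835 to 78064, 96380 to 121326 and 77424 to 84757, which is the order of the Tgfbi means across the groups. The lower sum in Pdgfrβ-KO lay mostly in Dcn, also counted among the antagonists, and Pi16. Their means went from 50708 to 31734 and from 15710 to 7161, while those of Pdgfra, Cd34, Ly6a and Icam1 were higher in Pdgfrβ-KO. The order is thus not shared by all markers of the list. Platelet and megakaryocyte markers, of which 3 of 5 were tested, were higher with age in 2 and in Pdgfrβ-KO in 1, with sums of 533 to 641, 1108 to 1730 and 2091 to 5293. In Pdgfrβ-KO the other 2 tested did not pass and the median log2 fold change was 0.33, so the sum does not stand for every marker of this list.

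The markers of mature adipocytes summed to 736 to 883 in 2-month controls, 1297 to 2200 in 12-month controls and 949 to 1726 in Pdgfrβ-KO. T cell markers summed to 9761 to 12662, 6791 to 13171 and 8115 to 10795, and B cell markers to 10392 to 18470, 13248 to 19638 and 16457 to 27904. With age 1 of 7 T cell markers was lower, 4 of 5 mature adipocyte markers were higher, and 0 of 5 B cell, 0 of 5 skeletal muscle and 0 of 5 epithelial markers passed. In Pdgfrβ-KO 0 of 7 T cell markers passed, 1 of 5 B cell markers was higher, 1 of 5 mature adipocyte markers was lower, 5 of 5 skeletal muscle markers were lower and 1 of 3 epithelial markers tested was lower. The skeletal muscle sum was 458 to 1345 in Pdgfrβ-KO and 2119 to 5464 in 12-month controls, and 2 of 5 epithelial markers were at 0 in every Pdgfrβ-KO library.

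**Figure D5:**
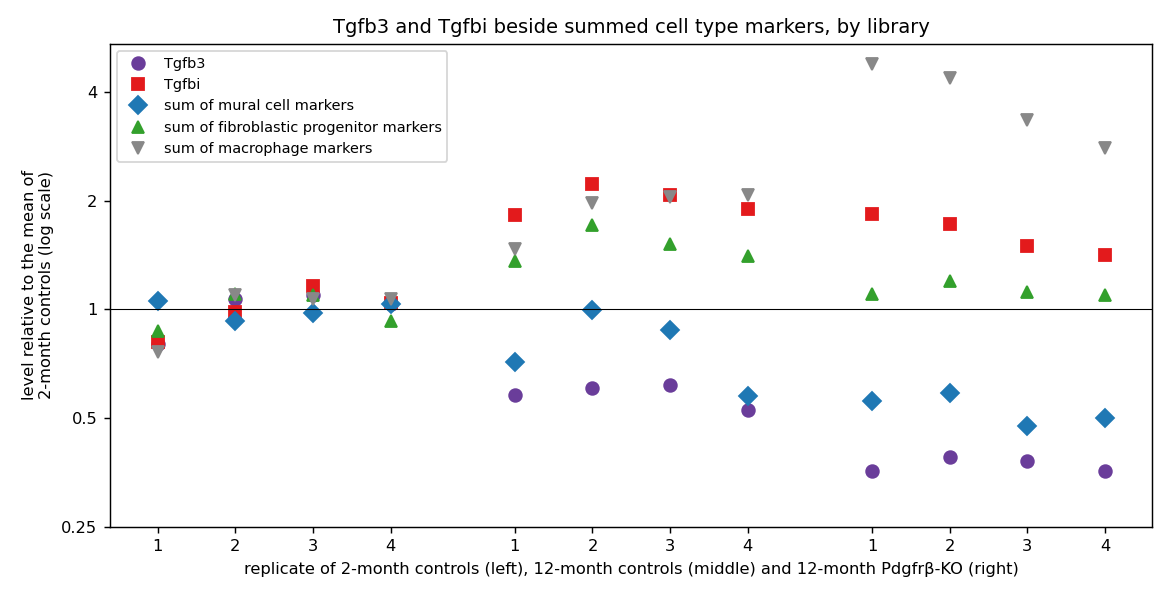
Level of Tgfb3, Tgfbi and the summed markers of mural cells, fibroblastic progenitors and macrophages in each library, relative to the mean of the 2-month controls (log axis), with the replicates of each group along the horizontal axis. Tgfb3 lies below the mural sum in all 8 libraries of 12 months, and Tgfbi lies below the macrophage sum in all 4 Pdgfrβ-KO libraries.

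For the 3 genes that passed in either main comparison, the genes with the closest profile over the 12 libraries were sought among 11233 genes with a mean of at least 100, by the mean absolute difference of log2 values centred on each gene's mean. This is a description of libraries that share groups, and carries no test. Closest to Tgfb3 were the integrin gene Itga6 (0.113) and the focal adhesion gene Vcl (0.129), beside a median of 0.538 over all these genes. Itga6 had mean normalised read counts of 4978 in 2-month controls, 3076 in 12-month controls and 2136 in Pdgfrβ-KO. Closest to Tgfbi were the dipeptidase gene Dpep1 (0.102), Rab7b (0.103) and Timp2 (0.115), an inhibitor of matrix metalloproteinases, beside a median of 0.436. Closest to Ltbp1 were Ift57 (0.0591), Dnajb2 (0.0699) and Lrrc49 (0.0737), beside a median of 0.295.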

How the data were processed

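Directional libraries of poly(A) RNA from iWAT SVF were sequenced from 12 mice, 4 per group. The authors deposited scores, which are read counts scaled by DESeq2 1.26.0 size factors per library and then rounded to integers. Per the submitters' processing notes the reads were trimmed with Trim Galore 0.6.0 and cutadapt, checked with FastQC and mapped to GRCm38 with STAR 2.7.0e. The counting tool, its annotation and its strand setting are not given in the sources used here. Because the scores are no longer raw counts, no count model was run, and the depth of the libraries is unknown. The deposited tables, one with both ages and the other with both 12-month groups, each held 55536 genes, and the 12-month control values were identical in both (100%), which allowed a fit of all 12 libraries. There were 4 lines without a gene, 5 empty columns and 0 columns of other samples, and 1 gene whose identifiers differed between the tables was joined by name.

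Tests were run on log2(value + 1), which understates the change of low genes, with limma 3.58.1 in R 4.3.3 (trend and robust estimation, two-sided, Benjamini-Hochberg adjustment over all genes tested, passing at an adjusted p under 0.05). A gene was tested when at least 4 libraries of the fit had a value of at least 10. Each main comparison used its own 8 libraries. The labels number the libraries as biological replicates and the p-values measure the spread between these mice. Confidence intervals are at 95%. The test was tried on simulated data. Far fewer genes were changed there than passed in the data, which makes the adjusted p stricter. The simulated spread of both groups came from 1 control group. The shares recovered therefore do not carry over directly to the data. It recovered 31 of 67 changes of 1.5-fold in the age setting and 30 of 67 in the Pdgfrβ-KO setting. Of 2-fold changes it recovered 56 and 42 of 67, and of 4-fold changes 64 and 63 of 66. A gene that did not pass may therefore still differ. Tables and figures were made with Python 3.11.15, pandas 2.3.3, numpy 2.4.6 and matplotlib 3.10.9. Gene positions, exon lengths and coding sequences are from GENCODE vM21, in which all 55536 identifiers were found, and are counted from 1. Promoters are from RefSeq (GRCm38.p6), and the start of the transcript matched for 10 of 12 promoters.

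The text names the 10 genes, genes of the pathway lists that passed and up to 2 per list that did not, and, for each of the 10 that passed, the 3 genes with the most similar profile. One of these is not reported here. The pathway lists cover latency and activation, accessory receptors and antagonists, Smads and their regulators, TGF-β induced genes and other superfamily ligands. The protease gene Bmp1 is in the list of superfamily ligands. The pathway lists are not independent, since a gene in more than 1 list is counted in each. Smad7, Skil and Pmepa1 are among both the Smads and the induced genes, and Fn1 and Thbs1 among both latency and the induced genes. The marker lists cover macrophages, monocytes, fibroblastic progenitors, mural, endothelial, T, B and Schwann cells, platelets and megakaryocytes, mature adipocytes, skeletal muscle and epithelium. The 10 genes and all lists were chosen with earlier results of these data known. Alternatives were pseudocounts of 0.5 and 5, no filter, a mean of at least 50, scaling to equal totals or upper quartiles, quantile normalization, no trend or robust estimation, array weights, a replicate block, another set of libraries in the fit, and each library left out.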

Additional observations from a re-analysis of the deposited data

Results flagged for a closer look

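Ltbp2 in Pdgfrβ-KO had 1 library far below the other 3, with 88 normalised read counts in replicate 2 beside 189, 194 and 197. The gap to the nearest library was 0.927 of the range of the group. In all, 30 groups of 4 libraries were looked at in this way, and chance flags about 1 in 20 such groups. Without this library the difference of Ltbp2 from the 2-month controls was 0.64 in log2 units with an adjusted p of 0.0258 by limma, against 0.277 when it was kept.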

How the results depend on the processing

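The 10 genes in 3 comparisons gave 30 differences, each recomputed under 19 alternatives. Of these 570 values 553 kept their direction and their side of the threshold, 0 lost significance, 4 gained it and 13 changed sign. Those that changed sign were differences near 0 that passed neither way. They were Tgfb2 with age (-0.059 with array weights, -0.049 to 0.16 on the log2 scale with 1 library left out) and, in Pdgfrβ-KO with 1 library left out, Tgfbr2 (-0.14 to 0.026), Tgfbr3 (-0.11 to 0.021), Ltbp1 (-0.15 to 0.0047), Ltbp2 (-0.12 to 0.28, and 0.00071 with a pseudocount of 5) and Ltbp4 (-0.0096 to 0.26). The 4 passed where the reported value did not, namely Tgfb1 with age (adjusted p = 0.0435 with upper quartile scaling and 0.0409 without 12-month control replicate 4), Tgfbr1 in Pdgfrβ-KO (0.0489 without Pdgfrβ-KO replicate 3) and Ltbp2 in Pdgfrβ-KO against 2-month controls (0.0258 without Pdgfrβ-KO replicate 2). The genes of the 10 that were lower with age then numbered 2, with upper quartile scaling, and 1 to 2 with 1 library left out, and those lower in Pdgfrβ-KO 1 to 2 with 1 library left out.

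Over all genes, the 3727 calls with age were 2356 to 3961 and the 1539 calls in Pdgfrβ-KO 859 to 1878 with 1 library left out. A fit of all 12 libraries gave 2600 calls for Pdgfrβ-KO, and with age 1334 higher and 1206 lower genes. The 1853 higher and 1874 lower genes with age became 2234 and 1509 after scaling to equal totals and 1572 and 2269 after upper quartile scaling. The causes were not tested. Replicate numbers were not used to pair the libraries. The correlation of same-numbered libraries was -0.216 to 0.157 with age and -0.018 to 0.375 in Pdgfrβ-KO. Pdgfrβ-KO replicates 2 (0.375) and 3 (0.234) correlated best with the 12-month control of their own number, and replicates 1 and 4 did not. So few correlations cannot decide whether the numbers pair the libraries. With the replicate block there were 2380 calls in Pdgfrβ-KO and 3116 with age, and the lower Smads and regulators in Pdgfrβ-KO went from 1 to 4 (3 with 12 libraries) and the higher ones from 0 to 1 (1). Higher genes of latency and activation in Pdgfrβ-KO went from 1 to 2 in both fits, and higher Smads and regulators with age from 1 to 0, as with upper quartile scaling.

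With the longest transcript as the length, Tgfb1 made up 82.2%, 85.7% and 90.4% of the ligands and Ltbp4 82.3%, 80.0% and 82.3% of the latent binding proteins in 2-month controls, 12-month controls and Pdgfrβ-KO. The depth behind the scores is unknown, which limits what can be said of Tgfb2 and Ltbp2, the genes with the lowest values. Without trend or robust estimation the higher genes with age were 2 of latency and activation, 0 of the Smads and 1 of the induced genes, the lower Smads 5, and the higher induced genes in Pdgfrβ-KO 2, as with quantile normalization. Upper quartile scaling and array weights each gave 1 lower antagonist gene with age, and a mean of at least 50 and the 12 libraries each gave 1 higher superfamily ligand with age.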
